A study of Oryza sativa with 4 samples.

Results

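Of the rice cDNAs on the array that carry gibberellin names, 4 are described here. They were lower in transgenic panicles than in wild type panicles on all 4 arrays, as were others with such names, among them AK061017 and AK073386. 2 of the 4 are oxidases of gibberellin synthesis, and the other 2 are chitin-inducible gibberellin-responsive genes. AK072410 is described as a homologue of the lettuce gibberellin 3-beta-hydroxylase Ls3h2. AK107142 is described as a rice gibberellin C-20 oxidase. AK069266 is CIGR1 and AK073470 is described as GIGR2, a name that the rice RefSeq gene table holds together with CIGR2. These are 4 of 21495 cDNA probes that are not controls. They were chosen by their low mean ratio of transgenic over wild type over both constructs, so that ratio and the ratio of each construct are given here as a description with no test.

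The study used rice panicles at the branching stage to look for genes downstream of RFL, the rice relative of the floral regulator LEAFY. Each of the 4 arrays set RNA of transgenic panicles against RNA of wild type TP309 panicles in the other dye. On 2 arrays the transgenic plants expressed antisense RFL RNA, and on the other two they carried a dsRNAi construct against RFL. Within each construct, replicate 1 had the transgenic RNA in Cy5 and replicate 2 had it in Cy3. The sources used here give no promoter, number of plants, number of lines or plant age for either construct. RNA pools of panicles were labelled, and the series states that the pools were independent. The title of dsRNAi replicate 2 names a sample B, but the labels do not otherwise say which array holds which pool. The p-values below may therefore measure a spread that is partly technical. RFL itself was not analysed here. As a check of the tissue, 4 or 5 of 5 KNOX cDNAs (homeobox genes of meristems) stood well above background in each channel, as did 7 of 13 anther and pollen cDNAs and 13 to 16 of 18 leaf cDNAs for chlorophyll-binding proteins and the small subunit of Rubisco. Between 14722 and 18191 of the 21495 probes were well above background in a channel, and the log2 ratios of the swapped arrays correlated at 0.933 for antisense and 0.832 for dsRNAi.

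Gibberellins are diterpene hormones that drive elongation growth and the switch from meristem to organ in many plants. Copalyl diphosphate synthase, kaurene synthase and kaurene oxidase make the early intermediates. Gibberellin C-20 oxidases then trim the carbon skeleton, and 3-beta-hydroxylases carry out the last step to the active hormone, while gibberellin 2-oxidases inactivate it. In rice the hormone is read by the receptor GID1, which marks the DELLA protein SLR1 for destruction. CIGR1 and CIGR2 encode GRAS family proteins that were described in rice as genes induced by chitin elicitors and by gibberellin. In tobacco, a KNOX protein binds a gibberellin 20-oxidase gene and holds it down, as background from another species.

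Ratios are given on the log2 scale as transgenic over wild type, after loess normalization within each array, so a value below 0 means less RNA in the transgenic panicles. AK072410, the 3-beta-hydroxylase homologue, had ratios of -2.56 and -2.17 on the antisense arrays and -2.22 and -2.27 on the dsRNAi arrays. The 4 arrays lie close together and the constructs overlap. The mean over both constructs was -2.30 ± 0.09 (SE from the fit, n = 4 arrays), 4.94-fold lower in the transgenic panicles. The errors of these means come from the arrays within a construct and leave out the difference between constructs. With construct as a random block the SE was 0.14 for AK072410. In a whole panicle, fewer cells that express a gene and less RNA per cell cannot be told apart. The transgenic signal of this probe was dim, down to 2.05 times the local background, against at least 4.26 times in the wild type channels. All 4 cDNAs were well above background in all 8 channels, and no spot of theirs was saturated. The size of the ratio of AK072410 depended on how background was removed: the mean was -2.98 with an offset of 10 in place of 50, and -3.91 in the deposited log ratios of the scanner software. That software gave each array's log2 ratio an error of 0.38 to 0.44 for this probe, beside gaps of 0.40 and 0.06 between the swapped arrays.

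AK107142, the C-20 oxidase, had ratios of -1.85 and -1.72 with antisense and of -0.53 and -0.31 with dsRNAi. The constructs did not overlap, and the ratio to the wild type RNA of the same array was lower with antisense. The antisense mean was 3.44-fold lower and the dsRNAi mean 1.34-fold lower than wild type. Over both constructs the mean was -1.10 ± 0.08 (SE within constructs, n = 4 arrays), or 2.15-fold lower, and the SE was 0.29 with construct as a random block. This probe was also dim, with a lowest signal of 2.45 times background in the transgenic and 2.39 times in the wild type channels, and in the deposited log ratios its mean was -1.78.

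CIGR1 had ratios of -2.20 and -1.97 on the antisense arrays and of -1.27 and -1.60 on the dsRNAi arrays. All 4 were well below 0, and both antisense values were lower than both dsRNAi values. Its mean was -1.76 ± 0.09 (SE within constructs, n = 4 arrays; 0.19 with the block), 3.39-fold lower in the transgenic panicles. GIGR2 had ratios of -2.69 and -2.29 with antisense and of -0.53 and -1.13 with dsRNAi. Its constructs did not overlap either, and its dsRNAi arrays lay 0.60 apart, against a gap of 0.06 to 0.33 for the other cDNAs. The mean was -1.66 ± 0.12 (SE within constructs, n = 4 arrays; 0.38 with the block), 3.16-fold lower.

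**Figure D1:**
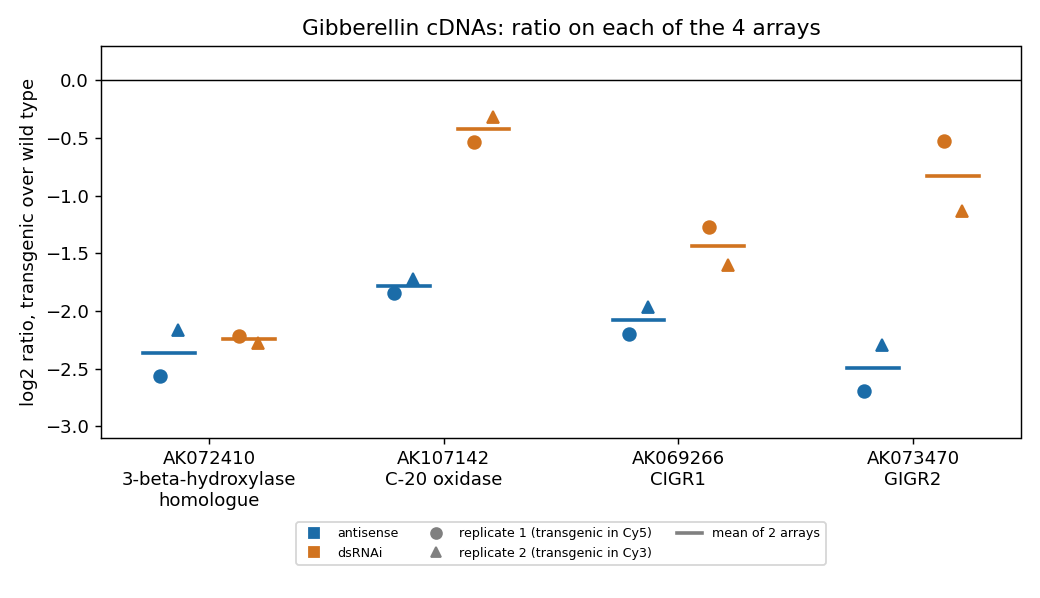
Log2 ratio of transgenic over wild type on each of the 4 arrays for the 4 gibberellin cDNAs, with circles and triangles for the 2 dye orientations and bars for the mean of each construct. All 16 points lie below 0. The antisense points lie below the dsRNAi points for the C-20 oxidase, CIGR1 and GIGR2, and overlap them for the 3-beta-hydroxylase homologue.

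Over all 17997 probes tested with limma, 21.3% were called lower and 20.5% higher in the mean of both constructs (Benjamini-Hochberg adjusted p under 0.05). With antisense alone 18.3% were lower and 18.9% higher, and with dsRNAi alone 14.6% were lower and 11.2% higher. Changes were therefore common on these arrays, and nothing is read here from the members' place among them. By the mean, AK072410 ranked 118 from the lowest of the 17997 probes, CIGR1 263, GIGR2 301 and AK107142 703. Dye orientation was tested as a term of its own. limma called 0 of the 4 cDNAs and 0 of the 17997 probes for it, and at an unadjusted p under 0.05 the counts were 0 of the 4 cDNAs and 1860 probes.

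The difference between the constructs was not itself the value used to choose the members, and it was tested. It is made of the same ratios, however. Ratios were called more often with antisense (37.2% of all probes) than with dsRNAi (25.8%). A choice by low mean may thus favour probes with very low antisense ratios, so the shares over all probes below are no plain yardstick for the members. Of the 4 cDNAs, 2 had ratios called higher with dsRNAi than with antisense, where 6.33% of all probes were higher, 10.1% lower and 16.5% called in all. For AK107142 the difference, dsRNAi minus antisense, was 1.36 ± 0.17 (SE; 95% interval 0.97 to 1.75; limma adjusted p = 0.00164), a ratio 2.57-fold higher with dsRNAi. For GIGR2 it was 1.66 ± 0.24 (95% interval 1.10 to 2.23; adjusted p = 0.00352), or 3.17-fold. CIGR1 differed in the same direction by 0.65 ± 0.19 and just missed the threshold (95% interval 0.21 to 1.08; adjusted p = 0.0543), and leaving out single arrays took it to both sides of the threshold. The adjusted p was 0.0484 without antisense replicate 2 and 0.0337 without dsRNAi replicate 2, but 0.217 without antisense replicate 1 and 0.193 without dsRNAi replicate 1. For AK072410 the difference was 0.12 ± 0.18 with a 95% interval of -0.31 to 0.55 (adjusted p = 0.738). No difference was called, and one of a size inside that interval was not excluded. Median centring in place of loess ended the calls for AK107142 and GIGR2. The antisense and the dsRNAi arrays were also scanned on different days and read with different versions of the scanner software, so construct, scan day, software version and hybridization set cannot be told apart.

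Because each array holds both RNAs, the levels of each channel show in which channel the ratios of the constructs parted. Levels are normalised log2 intensities of one probe and are compared here only within that probe. For AK107142 the wild type level was 8.75 and 9.03 on the antisense arrays but 7.29 and 7.31 on the dsRNAi arrays. Its transgenic level was 6.90 and 7.31 on the antisense arrays and 6.76 and 6.99 on the dsRNAi arrays. The transgenic channels overlapped across the constructs, and the wild type channels did not. The ratios of this cDNA thus parted in the wild type channels, whose RNA comes from plants without a construct. In order, the mean levels were 8.89 in wild type on antisense arrays, 7.30 in wild type on dsRNAi arrays, 7.10 in antisense panicles and 6.88 in dsRNAi panicles, of which the latter neighbours overlapped between arrays. Wild type on the dsRNAi arrays also overlapped antisense panicles and lay above dsRNAi panicles on both arrays.

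GIGR2 had wild type levels of 13.68 and 12.93 on the antisense arrays and of 12.26 and 12.27 on the dsRNAi arrays. Its transgenic levels were 10.99 and 10.64 with antisense and 11.73 and 11.14 with dsRNAi. Both channels moved toward each other on the dsRNAi arrays, without overlap in either channel. The mean levels in order were 13.31 and 12.27 in wild type on antisense and dsRNAi arrays, 11.44 in dsRNAi panicles and 10.82 in antisense panicles.

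CIGR1 had wild type levels of 11.06 and 10.91 on the antisense arrays and of 10.32 and 10.59 on the dsRNAi arrays. Its transgenic levels were nearly flat, at 8.86, 8.94, 9.05 and 8.99 on antisense 1, antisense 2, dsRNAi 1 and dsRNAi 2. Its mean levels in order were 10.99 and 10.46 in wild type on antisense and dsRNAi arrays, 9.02 in dsRNAi panicles and 8.90 in antisense panicles. AK072410 had wild type levels of 9.02, 9.13, 8.29 and 9.06 and transgenic levels of 6.46, 6.97, 6.08 and 6.79 on the same arrays. Both of its channels were lowest on dsRNAi 1, and within each channel the constructs overlapped. Its mean levels in order were 9.08 and 8.68 in wild type on antisense and dsRNAi arrays, 6.71 in antisense panicles and 6.43 in dsRNAi panicles. The highest transgenic level, 6.97, remained well under the lowest wild type level, 8.29.

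**Figure D2:**
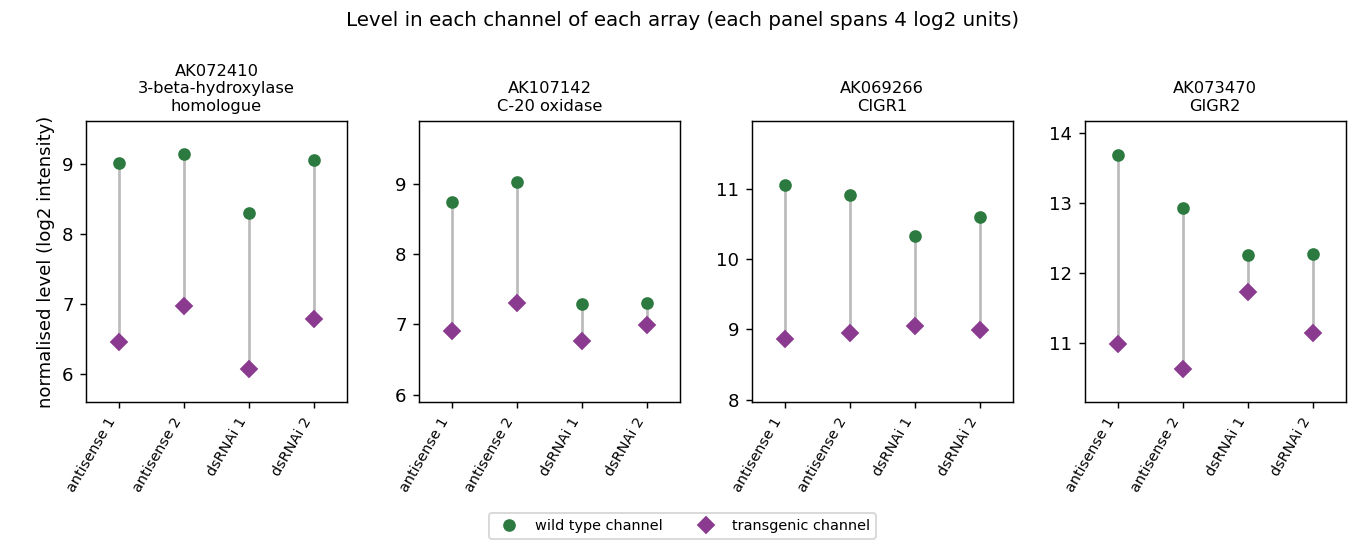
Normalised log2 level of each cDNA in the wild type (green circles) and transgenic (purple diamonds) channel of each array, joined by a grey line whose length is the ratio. The wild type level of the C-20 oxidase falls from 8.75 and 9.03 on the antisense arrays to 7.29 and 7.31 on the dsRNAi arrays while its transgenic level stays between 6.76 and 7.31.

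The separate channel fit tested these levels. The wild type levels are the denominators of the ratios that chose the members, so here too the shares over all probes are no plain yardstick. In the wild type channels, 3 of the 4 cDNAs were lower on the dsRNAi arrays than on the antisense arrays, where 15.9% of all probes were lower and 16.4% higher, 32.3% in all. AK107142 differed by -1.59 ± 0.16 (SE; 95% interval -1.95 to -1.23; adjusted p = 6.14e-05), 3.01-fold lower. GIGR2 differed by -1.04 ± 0.25 (95% interval -1.59 to -0.49; adjusted p = 0.00955), or 2.06-fold, and by -0.67 without antisense replicate 1. CIGR1 differed by -0.53 ± 0.14 (95% interval -0.84 to -0.21; adjusted p = 0.0171), a call that was lost without antisense replicate 1 (adjusted p = 0.129) and without dsRNAi replicate 1 (adjusted p = 0.105). AK072410 differed by -0.40 ± 0.26 (95% interval -0.99 to 0.19; adjusted p = 0.277).

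In the transgenic channels limma called none of the 4 cDNAs different between the constructs, where 2.45% of all probes were called, 1.13% lower and 1.32% higher. The difference was -0.28 for AK072410 (95% interval -0.87 to 0.31), -0.23 for AK107142 (95% interval -0.59 to 0.13) and 0.12 for CIGR1 (95% interval -0.20 to 0.43). For GIGR2 it was 0.62 (95% interval 0.07 to 1.17; adjusted p = 0.228), the 1 member with an unadjusted p under 0.05. These intervals do not show that the constructs gave the same transgenic level.

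**Figure D3:**
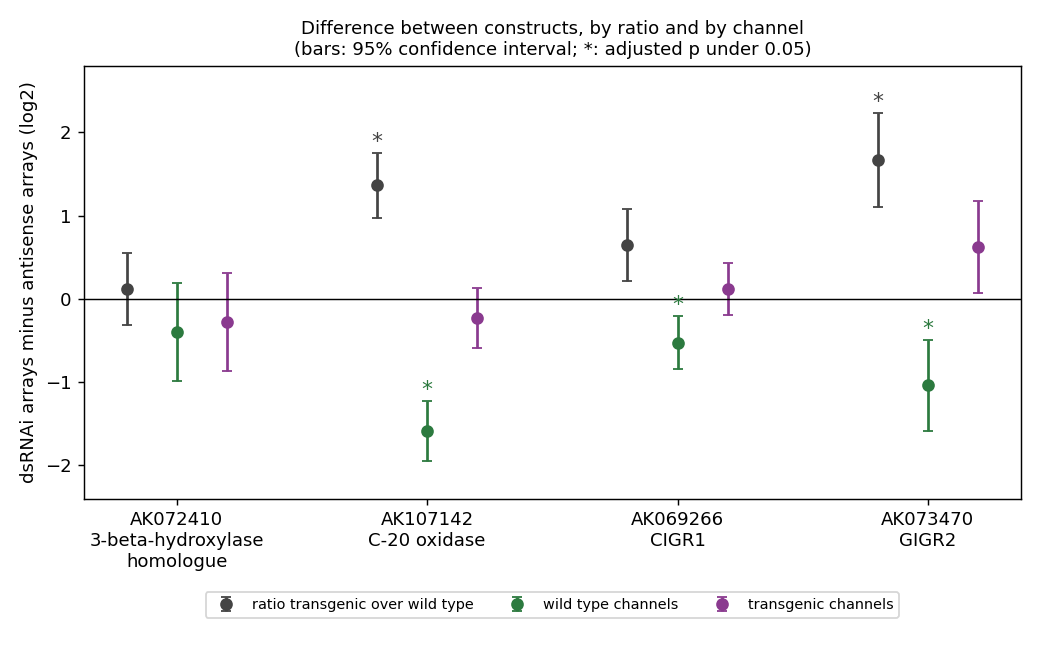
Difference between dsRNAi and antisense arrays in the ratio (black), the wild type channels (green) and the transgenic channels (purple), with 95% confidence intervals and a star where the adjusted p was under 0.05. The C-20 oxidase and GIGR2 have starred positive ratio differences of 1.36 and 1.66 and starred negative wild type differences of -1.59 and -1.04.

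Leaf cDNAs moved with the same split of the arrays. Of 16 tested, 10 were higher and 1 lower in wild type channels of the dsRNAi arrays, and 8 were higher in the transgenic channels. That is 68.8% called in wild type and 50% in the transgenic channels, against 32.3% and 2.45% of all probes. Their summed normalised level was 13.2 and 13.4 in log2 units in wild type on the antisense arrays and 15.1 and 15.2 on the dsRNAi arrays, and 13.5 to 13.7 against 14.6 to 14.7 in the transgenic channels. KNOX cDNAs also moved: 3 of 5 were higher in wild type on the dsRNAi arrays and limma called 0 in the transgenic channels (2 at an unadjusted p under 0.05). The summed KNOX level was 12.5 and 12.7 in wild type on the antisense arrays against 13.2 and 13.3 on the dsRNAi arrays, and 13.8 to 14.0 in all transgenic channels. Of 7 tested anther and pollen cDNAs, 2 were higher in wild type on the dsRNAi arrays, 28.6% against 32.3% of all probes. limma called 0 of them in the transgenic channels (0 at an unadjusted p under 0.05). They summed to 12.7 and 12.8 in wild type on the antisense arrays against 13.4 and 13.5 on the dsRNAi arrays. In the transgenic channels the sum was 13.5 to 13.9. The part of these other tissues in the results for the 4 cDNAs was not tested.

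Other cDNAs of the gibberellin pathway were found by their descriptions. Of 24 such cDNAs on the array besides the 4, 21 were tested. In the mean of both constructs 9 of these were lower, 4 were higher and 8 were not called. That is 61.9% called, against 41.7% of all probes, with a median of -0.16. With antisense alone 5 were lower and 2 higher, 33.3% called against 37.2% of all probes. With dsRNAi alone 6 were lower and 4 higher, 47.6% against 25.8%. Their mean ratios ran from -0.85 to 0.65. Median centring, or averaging the arrays of each construct, ended all 13 calls, and a random block for construct left 2 lower and 1 higher.

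Early synthesis gave mixed directions. The kaurene synthase A homologue AK100333 and the ent-kaurene oxidase homologue AK066285 were each lower by a log2 ratio of -0.40 (adjusted p = 0.00703 and 0.0123). The copalyl diphosphate synthase homologue AK072928 was called higher at 0.65 (adjusted p = 0.000909), with ratios of 0.05 and 0.02 on the antisense arrays, where neither channel was well above background, and 1.08 and 1.47 on the dsRNAi arrays. Its wild type signal was not well above background on any array and its transgenic signal was above it on the dsRNAi arrays alone, where it was at least 2.13-fold higher than wild type. Such bounds set the mean of the brighter channel against the lowest signal still well above background on each array. A second kaurene synthase A homologue, AK100631, was called higher at 0.27. Neither of its channels was well above background on the antisense arrays, and on the dsRNAi arrays its transgenic signal was at least 1.33-fold higher than wild type.

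Besides AK072410 and AK107142, 4 late synthesis cDNAs were tested, of which 3 were lower and limma called 0 higher (1 at an unadjusted p under 0.05). Of all probes, 21.3% were lower and 20.5% higher. AK061017 shares the description of AK107142 as a C-20 oxidase. Its ratios were -0.95 and -0.90 with antisense and -0.73 and -0.66 with dsRNAi, all 4 below 0 and close together. The mean of -0.81 ± 0.08 was 1.75-fold lower (adjusted p = 0.000114), and the constructs did not differ detectably (0.24 ± 0.15; adjusted p = 0.367). The gibberellin 20-oxidases AK105597 and AK070306 were both lower by a mean ratio of -0.31 (adjusted p = 0.0163 and 0.0176), with values from -0.67 to -0.48 on the antisense arrays and from -0.16 to -0.02 on the dsRNAi arrays. The third 20-oxidase, AK110729, had a ratio of 0.20 and was not called. In the wild type channels 3 of these 4 cDNAs were lower on the dsRNAi arrays, where 15.9% of all probes were lower and 32.3% called. The differences were -0.50 for AK105597, -0.58 for AK070306 and -0.50 for AK110729, the direction of AK107142. AK061017, with -0.55, was not called (adjusted p = 0.133).

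The 3 tested cDNAs of gibberellin 2-oxidase, which breaks the hormone down, share the description OsGA2ox3. Their ratios split by construct, but AK063973 went the other way from AK108802 and AK101713. Whether these cDNAs are 1 gene or more was not settled here. AK108802 had ratios of 0.00 and -0.15 with antisense and of -0.92 and -0.71 with dsRNAi. AK101713 had 0.58 and 0.21 with antisense and -0.82 and -1.21 with dsRNAi, so its signs were opposite. AK063973 had 0.11 and -0.45 with antisense and 0.86 and 0.51 with dsRNAi. All 3 differed between the constructs, by -0.74, -1.41 and 0.85 (limma adjusted p = 0.0218, 0.00380 and 0.0439), where 16.5% of all probes were called. They also differed in the wild type channels, by 0.57, 1.35 and -1.20, where 32.3% of all probes were called. In the transgenic channels, where 2.45% of all probes were called, limma called 0 of the 3 (0 at an unadjusted p under 0.05).

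Of 6 signalling cDNAs, 2 were higher and 1 lower, a share of 50% against 41.7% of all probes. The barley GAMYB-binding protein homologues moved in both directions, with AK066411 (gbp4) at 0.55 and AK069526 (kgm) at -0.85 (adjusted p = 0.00104 and 0.000263). The homologue of barley SPY, a negative regulator of gibberellin action, was 0.29 (AK065854; adjusted p = 0.0259). GAMyb itself, the gibberellin-regulated MYB activator, had a ratio of 0.03 and was not called. Among the response genes, the petunia gip3 homologue AK059073 had ratios of 0.26 and 0.01 with antisense and of -1.42 and -1.36 with dsRNAi. Much of its signal was dim: the wild type channel was well above background on neither antisense array, and the transgenic channel on 1 array of each construct. The fitted value of its difference between the constructs is therefore not a measured size. The second cDNA described as GIGR2, AK073386, had ratios from -0.35 to -0.05, and its mean of -0.16 was not called (adjusted p = 0.145), so the 2 cDNAs of that description gave unlike ratios. Whether they are 1 gene or 2 was not settled here.

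**Figure D4:**
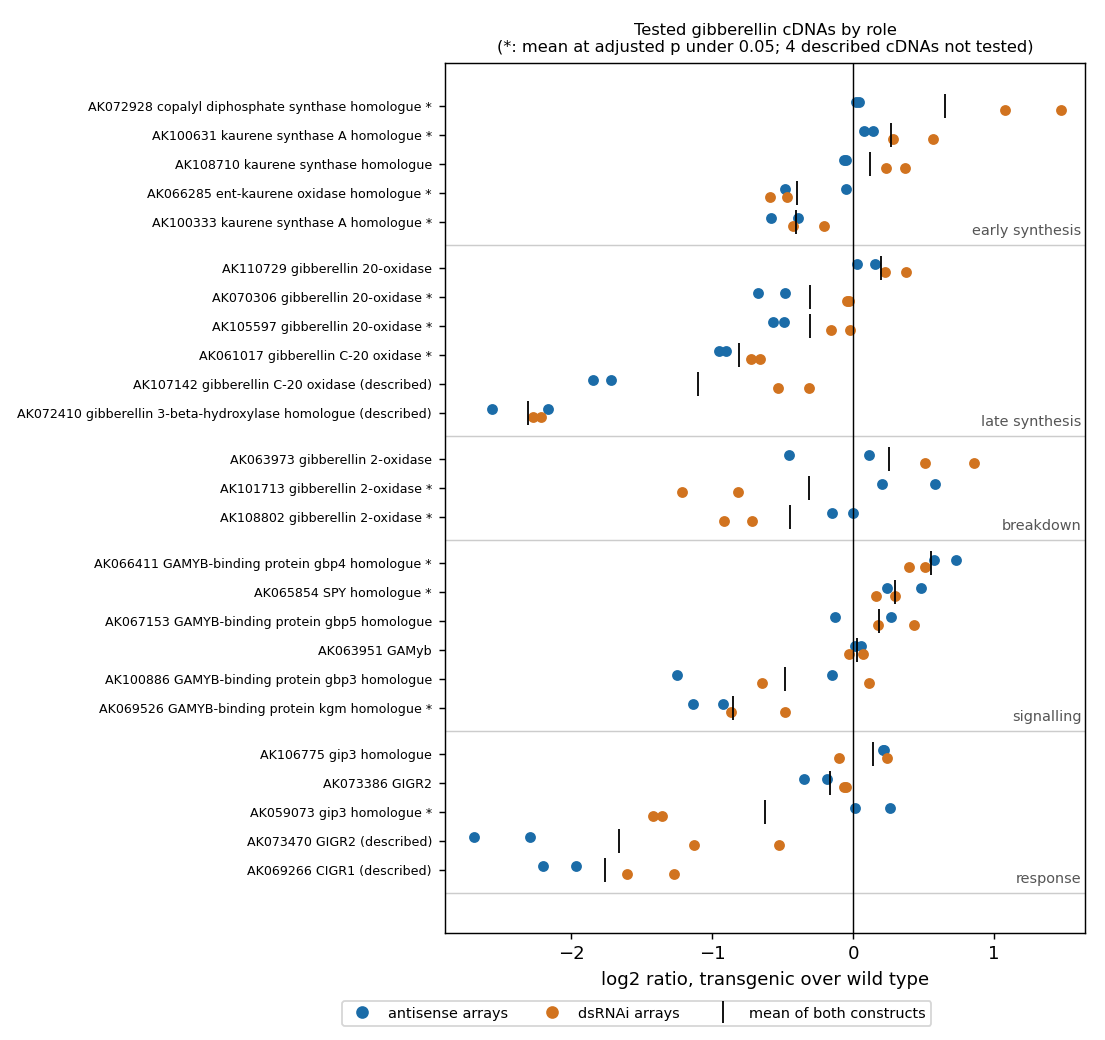
Log2 ratio on each array of the 25 tested gibberellin cDNAs, ordered by role, with blue points for antisense, orange points for dsRNAi arrays and a tick for the mean of both constructs. Each of the 4 described cDNAs reaches -1.85 or lower on an antisense array, and the 2-oxidases show antisense and dsRNAi points that do not overlap.

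CIGR1 and GIGR2 belong to the GRAS family. Of 14 other GRAS cDNAs tested, 5 were higher and 2 lower, with a median of -0.07. That share of 50% is near the 41.7% of all probes. The scarecrow-like 21 homologue AK058352 was highest at 1.09, and the scarecrow-like 14 homologue AK102593 was lowest at -0.57. Among 12 tested cDNAs described as elicitor responses, 2 were higher and 4 lower, again 50%, with a median of -0.06, and the ratios ran from -3.56 to 2.30. The KNOX cDNAs were higher in 3 of 5 cases, led by Hos3 (AK111877) at 1.45 and HOS9 (AK111878) at 0.83, and lower in 1 case (AK068954, -0.44). Of all probes, 20.5% were higher and 21.3% lower. Hos3 was 2.13 with antisense and 0.76 with dsRNAi, and HOS9 was 1.34 and 0.32. With antisense alone 3 of the 5 were called higher and 1 lower, and with dsRNAi alone 1 higher and 1 lower.

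The pattern over all 8 channel levels, each probe centred on its own mean, was compared with 7753 described probes by root mean square distance. CIGR1 lay nearest to a pectin methylesterase homologue (AK101962) and to the carrot ecp31 homologue (AK106743), both at 0.127, and to a ubiquitin carrier protein homologue (AK112030) at 0.154. AK107142 lay nearest to an actin depolymerizing factor homologue (AK064063) at 0.134, an RNA helicase homologue (AK108808) at 0.143 and an oxidoreductase homologue (AK108048) at 0.146. AK072410 lay nearest to an IAA-amino acid hydrolase homologue (AK107208) at 0.227, a starch synthase (AK101978) at 0.230 and a WRKY57 homologue (AK069091) at 0.233. GIGR2 lay nearest to the water stress protein WSI18 (AK064074) at 0.239, a pyruvate kinase homologue (AK100393) at 0.259 and a cytosolic GAPDH (AK099086) at 0.262. Among the 4 cDNAs, CIGR1 and GIGR2 were the closest pair at 0.350, with 210 tested probes nearer to CIGR1 than GIGR2 was. The least alike pair was AK072410 and AK107142 at 0.768. The 4 cDNAs were chosen for a low ratio, which every one of these distances shares.

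**Figure D5:**
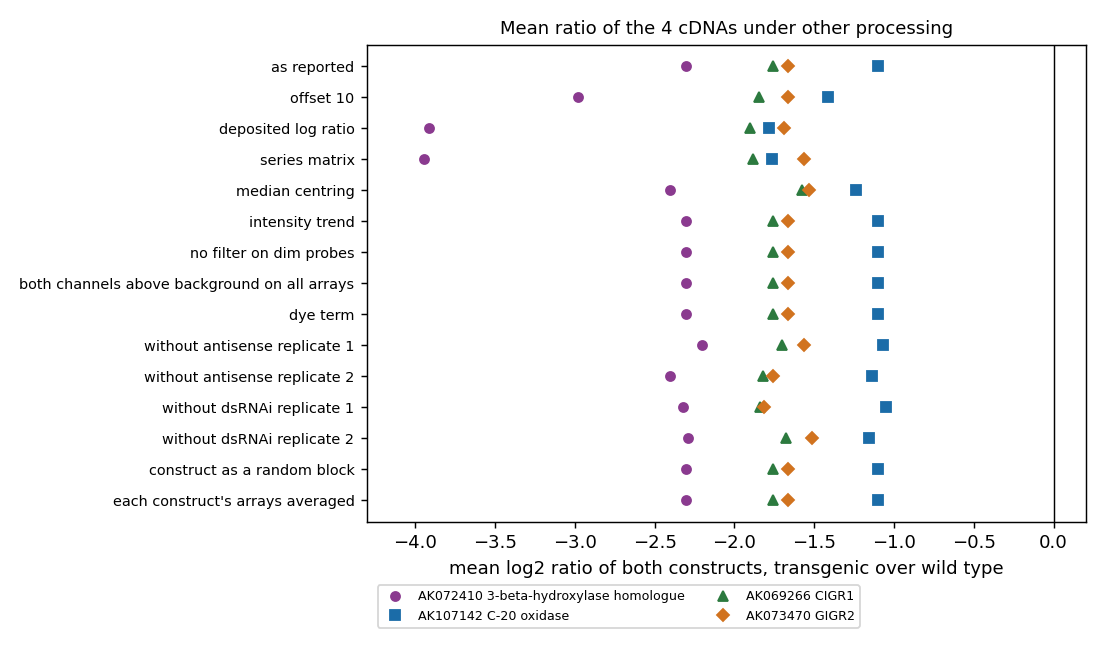
Mean log2 ratio of both constructs for the 4 cDNAs under each way of processing tried. CIGR1 and GIGR2 stay near their reported -1.76 and -1.66. In the deposited log ratios the dim 3-beta-hydroxylase homologue moves from -2.30 to -3.91 and the dim C-20 oxidase from -1.10 to -1.78.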

How the data were processed

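Agilent rice arrays with 2 colours were read with Feature Extraction 8.1.1.1 (antisense) and 9.1.3.1 (dsRNAi), per the file headers. The deposited files hold mean signal and background intensity per spot, and the scanner's log10 ratio with its error and p-value, made by the authors with that software. The series matrix holds the authors' ratios, taken here as log2 from their scale against the scanner's; centring and steps are not given in the sources used here. It was matched to probes by probe name order, and its columns correlated at 0.839 to 0.975 with the scanner's ratio. Direction follows the dye fields of the labels, although the labelling text of the swapped arrays names the other dye.

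Intensities were corrected with normexp (offset 50) and loess in limma 3.58.1 (R 4.3.3), leaving out control spots and outlier flags. A probe was tested if either channel stood well above background on 2 or more arrays and all 4 gave a value (17997 probes). limma fitted 1 coefficient per construct and adjusted p over all probes (Benjamini-Hochberg, 0.05). Channels were fitted after loess and Aquantile, with an intraspot correlation of 0.245. The fits were tested on simulated data. Members and lists were chosen with earlier results of these data known. Named are the members, the gibberellin cDNAs called in the mean, a few uncalled ones chosen after their values were seen, and the nearest described probes. No reference sequence was used, and no probe matched RefSeq by accession. The 2 CIGR names were matched by symbol in assembly ASM3414082v1.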

Additional observations from a re-analysis of the deposited data

Results flagged for a closer look

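7 of 25 tested gibberellin cDNAs (28%, against 16.5% of all probes) had ratios that differed between the constructs. The test was of the difference itself (limma, dsRNAi minus antisense, adjusted over all probes). The 25 include the 4 cDNAs chosen for a low mean of these same ratios. Of the other 21, 5 differed (23.8%), some of which share a description and may be 1 gene. AK107142 (C-20 oxidase) differed by 1.36 and GIGR2 (AK073470) by 1.66. The copalyl diphosphate synthase homologue AK072928 differed by 1.24, with neither channel well above background on the antisense arrays. The 2-oxidase cDNAs AK101713, AK108802 and AK063973, which share a description, differed by -1.41, -0.742 and 0.854. The petunia gip3 homologue AK059073 differed by -1.52, with wild type below the background threshold on both antisense arrays and transgenic on 1 array of each construct. For these last named dim cDNAs, AK072928 and AK059073, the fitted value is not a measured size. For all 7 the scan day and software version of the arrays differed in the same way as the construct, so these cannot be told apart.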

How the results depend on the processing

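The means of AK107142, CIGR1 (AK069266) and GIGR2 (AK073470) moved by less than the SD of their ratios over the arrays under all 14 alternatives, although AK107142 was -1.78 in the deposited log ratio. That SD holds the difference between constructs, so it is a wide yardstick. It was 0.79, 0.41 and 1.005 for these cDNAs, against 0.18 for AK072410. The mean of AK072410 moved to -2.98 with an offset of 10, -3.91 in the deposited log ratio and -3.94 in the series matrix. Its construct difference, near 0, turned to -0.046 in the deposited ratios, -0.075 in the series matrix, -0.067 with median centring and -0.080 without antisense replicate 1 (range without single replicates -0.080 to 0.32). Median centring took the difference of AK107142 to 1.11 and that of GIGR2 to 1.95, both no longer called, and the probes called for the difference from 2962 to 32. Without single replicates these differences ran from 1.25 to 1.47, from 1.36 to 1.96 and, for CIGR1, from 0.48 to 0.81 (adjusted p = 0.0337 to 0.217; 0.0853 with an offset of 10, 0.132 in the deposited ratio and 0.118 in the series matrix).

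Of the other 21 gibberellin cDNAs, 9 were lower and 4 higher. Lower counts were 0 with median centring (1 unadjusted, at p under 0.05), 2 with a random block for construct and 0 with each construct averaged (2 unadjusted). Higher counts were 0 (0 unadjusted), 1 and 0 (1 unadjusted), and 2 each in the series matrix and with both channels above background. Without single replicates 7 to 10 were lower and 3 higher. Median centring and averaging ended all 13 calls, and the block all except AK061017, AK066411 and AK069526. AK101713 lost its call in 9 of 14 alternatives, and AK100631 and AK065854 in 6 each (of 12 and 14). Probes called for the mean went from 7508 to 1096 with median centring, 2594 with the block and 0 when averaged (3407 unadjusted).

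In the wild type channels CIGR1 was -0.47 with no normalization between arrays (adjusted p = 0.133) and -0.66 to -0.39 without single replicates. The ranges were -0.79 to -0.016 for AK072410, called once (-0.79 without dsRNAi replicate 2), -1.72 to -1.45 for AK107142 and -1.41 to -0.67 for GIGR2. Probes called there fell from 5818 to 3308 with no normalization between arrays, and to 3655 to 4624 without single replicates. In the transgenic channels 97 probes were called with no normalization between arrays, 269 with an offset of 10 and 76 to 309 without single replicates, against 441, and AK072410 ran from -0.64 without dsRNAi replicate 2 to 0.073 without dsRNAi replicate 1. Channel fits without a replicate kept the correlation of all 4 arrays, and a lone array was assumed to vary like the others. The cause of these changes was not tested. No paired analysis was possible because the labels give no replicate numbers. Those used here follow sample order and, as it turned out, dye orientation, and with dye as a term the calls for the construct differences of the 4 cDNAs did not change. Precision is limited by 2 arrays per construct and, for AK072410 and AK107142, by signals near background.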
